A study of Mus musculus with 6 samples.

Results

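The integrated stress response was followed through 10 genes, namely the transcription factor genes Atf4, Atf5, Atf3, Ddit3, Cebpb and Cebpg, the transcriptional cofactor gene Nupr1, and the feedback and effector genes Trib3, Ppp1r15a and Chac1. The genes were named for their known roles in the pathway, not by a measured value, though with earlier results of these data known, and all 10 were among the 11835 genes of the deposited expression table. RNA was sequenced from C2C12 cells, a mouse myoblast line that fuses into myotubes when serum is reduced. In 3 libraries the cells had been transfected with NC siRNA (siNC), a negative control, and in 3 with CNN3 siRNA (siCNN3), which targets the actin-binding protein calponin 3. The 2 groups share the cell line, the growth medium with fetal bovine serum, the change to horse serum for differentiation and the exposure to a transfected siRNA, and they differ by the siRNA. No untransfected cells were compared, several CNN3 siRNAs were designed, and the one used for these libraries is not named, so an effect of its sequence on other genes cannot be told apart from an effect of Cnn3. The libraries are called replicates 1 to 3 of each group after their titles. Nothing says whether they came from separate cultures, so the p-values measure only the spread between these libraries.

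The integrated stress response starts when one of several kinases phosphorylates the translation initiation factor eIF2, which lowers protein synthesis in general while the mRNA of the transcription factor ATF4 is translated more. ATF4 then pairs with other factors of the basic leucine zipper (bZIP) family, such as the C/EBP proteins, and raises genes of amino acid supply and further regulators such as CHOP, the product of Ddit3. The product of Ppp1r15a (GADD34) closes the loop by bringing a phosphatase to eIF2, and TRIB3 binds ATF4 and restrains it. In muscle cells the pathway is known from amino acid shortage, mitochondrial stress and viral RNA. The libraries measure mRNA, so neither phosphorylation of eIF2 nor translation of Atf4 was seen.

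Promoter sequences are shown because ATF4 with a C/EBP partner binds a composite site, the C/EBP-ATF element, read as TGATGCAA or, on the other strand, as TTGCATCA. The windows ran from 250 bases before to 50 bases after each RefSeq start (GRCm38.p6) and were searched on both strands. All 10 genes had a window, and 3 of them held the element. The 3 stretches below are given 5′ to 3′ on the strand of the gene, with the element in capitals.
Atf3 (chr1:191183410-191183469, minus strand): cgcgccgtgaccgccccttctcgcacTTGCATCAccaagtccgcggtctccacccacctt
Chac1 (chr2:119351023-119351082, plus strand): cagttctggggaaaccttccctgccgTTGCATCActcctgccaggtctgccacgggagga
Nupr1 (chr7:126625562-126625591, minus strand): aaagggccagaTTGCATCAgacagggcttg
The element started 110 bases before the RefSeq start in Atf3 and Nupr1 and 193 bases before it in Chac1. In Nupr1 the GENCODE transcript listed in the data starts 206 bases upstream of the RefSeq start, so the element lies within that transcript, whereas in Atf3 and Chac1 it lies upstream of it. In all 3 genes it reads TTGCATCA on the strand of the gene. Over all 27025 genes with a promoter window, 279 held the element, or 1.03%, and of the 9227 tested genes with a window 0.737% did. With the sixth base left free (TGATGNAA, which includes the element itself), Trib3 was added as the fourth gene, and 4.51% of all genes and 2.83% of the tested ones had a match. It lies just after the RefSeq start of Trib3. The GENCODE transcript listed in the data starts 28 bases downstream of that start, so the match lies upstream of the transcript.
Trib3 (chr2:152344028-152344057, minus strand): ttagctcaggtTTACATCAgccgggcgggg
The cAMP response element TGACGTCA, to which ATF and CREB factors bind, was found in Ppp1r15a, in 2.03% of all genes and in 3.74% of the tested ones. The AP-1 element TGANTCA, known from JUN and FOS dimers, was found in Ddit3, in 8.97% of all genes and in 6.31% of the tested ones. Their stretches follow with these elements in capitals.
Ppp1r15a (chr7:45526269-45526306, minus strand): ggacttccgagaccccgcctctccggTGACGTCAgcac
Ddit3 (chr10:127290543-127290583, plus strand): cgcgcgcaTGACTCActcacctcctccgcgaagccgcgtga
The windows of Atf4, Atf5, Cebpb and Cebpg held none of these elements. A match or its absence describes the letters in the window and does not show what binds there.

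**Figure D1:**
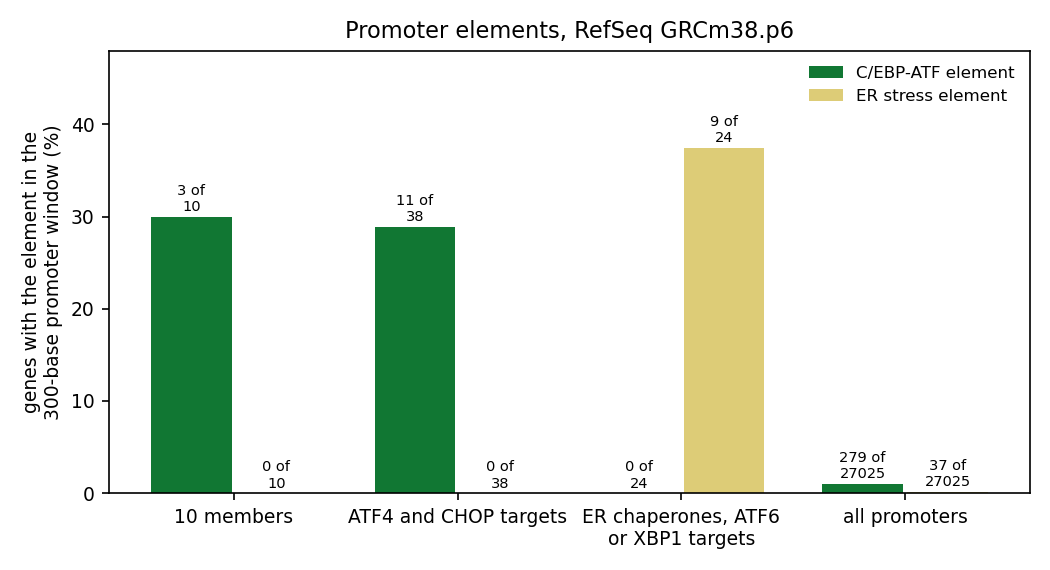
Share of genes whose promoter window of 250 bases before to 50 bases after a RefSeq start holds the C/EBP-ATF element (green) or the ER stress element (yellow), in percent on the vertical axis, for 4 sets of genes. The C/EBP-ATF element was in 3 of 10 integrated stress response genes and 11 of 38 ATF4 and CHOP target genes, while the ER stress element was in 9 of 24 genes of the ER list. These lists were named for known roles or known targets, so their shares describe them and are not independent evidence.

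Values are FPKM (fragments scaled by transcript length and by all mapped fragments), summed over the transcripts of a gene. The deposited table holds no read counts, so the depth is unknown. By the median gene the libraries did not sort by siRNA alone. Between siCNN3 replicates 1 and 2 the median gene differed by 0.111 on log2(FPKM + 1), the smallest distance of any pair, whereas siCNN3 replicate 3 was 0.320 and 0.292 from them and 0.225 from siNC replicate 1. By Pearson correlation over the same genes siCNN3 replicate 3 was instead closest to siCNN3 replicate 2 (0.956), ahead of siNC replicate 3 (0.951), and siCNN3 replicate 1 was its farthest but for siNC replicate 2 (0.947 and 0.941). Without counts, whether replicates 1 and 2 differ beyond sampling noise could not be tested, and the fits without either of them stand in for counting the pair once. siNC replicate 1 had the most transcripts at 0 FPKM, 2131 compared with 978 to 1333 in the other libraries. Cnn3 itself was at 62.8, 61.4 and 62.8 FPKM in siNC replicates 1 to 3 and at 19.04, 39.2 and 25.6 FPKM in siCNN3 replicates 1 to 3. All siCNN3 values lay below the siNC values, yet the gene was not called lower (limma, -1.19 ± 0.242 as a log2 fold change with its standard error, adjusted p = 0.0669), except without siCNN3 replicate 2 (-1.46, adjusted p = 0.0475, limma). The labels give the cells as myotubes, and the paper describes the sequenced cells as differentiating myoblasts. Of the muscle markers Des was at 84.3 to 125.1 FPKM and Myog at 0.485 to 3.07 FPKM. The creatine kinase gene Ckm reached at most 0.911 FPKM. Acta1 was at 24.6 to 33.8 FPKM in siNC and 5.35 to 6.43 FPKM in siCNN3, and Mylpf at 22.8 to 36.5 and 5.88 to 7.36 FPKM. Myh3 was at 1.96 to 3.04 and 0.209 to 0.451 FPKM. Actc1, Ttn and Pax7 were not among the 11835 genes analysed.

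Most genes of the integrated stress response were higher in siCNN3. Of the 10, 7 were called higher (Atf3, Atf4, Ddit3, Nupr1, Trib3, Chac1 and Ppp1r15a), 0 were called lower, and Atf5, Cebpg and Cebpb were not called. A gene was called when its adjusted p was below 0.05 in limma's moderated test on log2(FPKM + 1), adjusted by the Benjamini-Hochberg method over the 11593 genes tested. Of all those genes 200 were called higher, or 1.73%, and 39 lower, or 0.336%. Because the 10 genes were picked with earlier results known, their count describes them and is not independent evidence. With each gene tested on its own spread, none of the calls named here was kept, and 9 of the 10 genes were higher at an unadjusted p below 0.05, compared with 9.35% of all genes higher and 6.18% lower on that test. In 9 of the 10 every siCNN3 library lay above every siNC library, compared with 13.8% of all genes tested, and in 9.35% of all genes every siCNN3 library lay below. The median log2 fold change was 1.94 over the 10 genes and 0.03 over all genes. Their summed level was 447 to 476.7 FPKM under siNC and 1332 to 1569 FPKM in siCNN3. For each of the 9 genes without overlap the exact two-sided permutation test gave p = 0.1, the smallest that 3 against 3 allows. In these bulk libraries more RNA in every cell and more cells with high levels cannot be told apart.

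**Figure D2:**
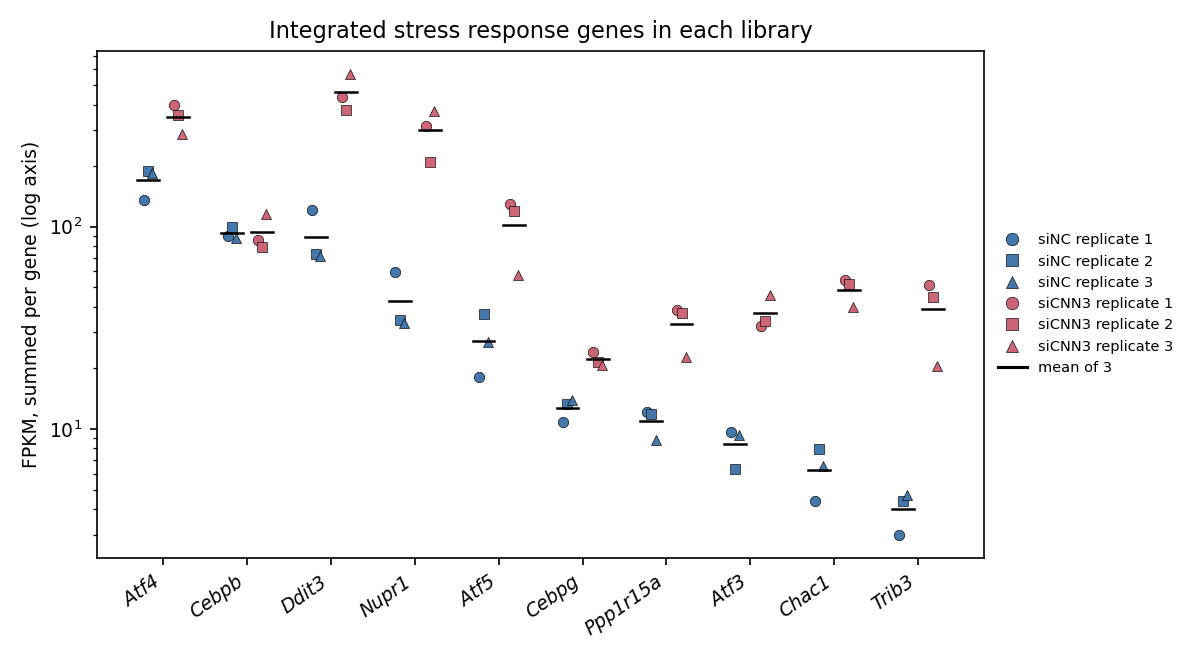
FPKM of the 10 genes in each library on a log axis, with siNC in blue, siCNN3 in red, a symbol for each replicate and a bar at the mean of 3. In all genes but Cebpb the 3 siCNN3 values lie above the 3 siNC values, from Trib3 at 2.999 to 4.678 FPKM in siNC to Ddit3 at 378.8 to 570.1 FPKM in siCNN3.

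Atf4 (chromosome 15 of GRCm38, 80255184 to 80257541), whose product drives the response, was already abundant in the control cells. It was at 135.8, 188.7 and 184.7 FPKM in siNC replicates 1 to 3 and at 399.8, 356.1 and 287.2 FPKM in siCNN3 replicates 1 to 3. The groups did not overlap, with the lowest values of each in siNC replicate 1 and siCNN3 replicate 3. Its mean rose from 169.7 ± 29.5 to 347.7 ± 56.8 FPKM (SD, n = 3 each), or 1.03 ± 0.177 (standard error, SE) as a log2 fold change (adjusted p = 0.0427, limma). Atf4 is thus among the called genes by a narrow margin. With a library left out it was called only without siCNN3 replicate 3 (adjusted p = 0.0221, and 0.0676 to 0.164 without any of the other 5, limma). The call of Atf4 was also lost with quantile normalization (adjusted p = 0.057), without limma's trend (0.0604), with the most abundant transcript of each gene (0.0722) and with the replicate block (0.126), so that 6 of the 16 alternatives called it.

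Atf5 (chromosome 7, 44812256 to 44816658), a close relative of Atf4 whose mRNA is likewise translated under eIF2 phosphorylation, had a larger difference but a wider spread. Its levels were 18.04, 36.9 and 26.8 FPKM in the siNC replicates and 129.7, 119.6 and 57.6 FPKM in the siCNN3 replicates. Here too siNC replicate 1 and siCNN3 replicate 3 were the lowest of their groups, and the groups did not overlap. Its log2 fold change came to 1.84 ± 0.367 (SE, adjusted p = 0.0629, limma), so Atf5 was not called, while without siCNN3 replicate 3 it was (2.21, adjusted p = 0.0147, limma). Its 2 listed transcripts did not share the difference. Atf5-201 was at 8.26, 19.7 and 17.7 FPKM in the siNC libraries and 128.4, 105.9 and 40.3 FPKM in siCNN3, and Atf5-202 was at 9.78, 17.2 and 9.10 FPKM in the siNC libraries and 1.33, 13.6 and 17.3 FPKM in siCNN3. The first thus made up 45.8% to 66.1% of the gene in siNC and 70.0% to 99.0% in siCNN3, as the authors' estimates divide the reads. Nup62 overlaps Atf5 on the opposite strand, with up to 27.4 FPKM for a listed transcript, and whether reads were counted by strand is not stated.

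Ddit3 (chromosome 10, 127290774 to 127296288) encodes CHOP, a bZIP factor linked to cell death in prolonged stress, and was the most abundant of the 10 genes in siCNN3. It was at 121.5, 72.9 and 71.2 FPKM in the siNC libraries and 438, 378.8 and 570.1 FPKM in siCNN3. The groups lay far apart, and the highest value of each was in siNC replicate 1 and siCNN3 replicate 3, the libraries that were lowest for Atf4. The mean was 88.5 ± 28.6 FPKM under siNC and 462.3 ± 98.0 FPKM in siCNN3 (SD, n = 3), and the log2 fold change came to 2.40 ± 0.245 (SE, adjusted p = 0.0099, limma). With a library left out, Ddit3 lost its call only without siNC replicate 3 (adjusted p = 0.0642, limma). Mars, a tRNA synthetase gene that overlaps Ddit3 on the opposite strand, reached 20.07 FPKM in a listed transcript, below every value of Ddit3.

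Atf3 (chromosome 1, 191170296 to 191218039), a stress-inducible bZIP factor that mostly represses transcription, changed in a similar way. Its levels were 9.61, 6.35 and 9.32 FPKM under siNC and 32.2, 34.04 and 46.05 FPKM in siCNN3. Every siCNN3 library was more than 3 times as high as every siNC library, and siCNN3 replicate 3 was the highest. The mean rose from 8.43 ± 1.80 to 37.4 ± 7.54 FPKM (SD, n = 3), which is 2.03 ± 0.206 (SE) as a log2 fold change, with an adjusted p of 0.0099 (limma), and of the 6 libraries only the removal of siNC replicate 3 ended the call (adjusted p = 0.0584, limma). Almost all of the level belonged to the transcript Atf3-201, since Atf3-203 was above 0 only in siNC replicate 1, at 1.60 FPKM.

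The C/EBP partners differed from each other. Cebpg (chromosome 7, 35046422 to 35056573), which forms dimers with ATF4, was at 10.8, 13.2 and 13.8 FPKM in the siNC libraries and 24.02, 21.4 and 20.7 FPKM in siCNN3. The groups did not overlap and the spread within each was small, with means of 12.6 ± 1.62 and 22.04 ± 1.75 FPKM (SD, n = 3). Its log2 fold change came to 0.76 ± 0.141 (SE), and the adjusted p of 0.0508 (limma) missed the threshold, which it passed without siCNN3 replicate 3 (0.0453) and under 4 other alternatives. Cebpb (chromosome 2, 167688915 to 167690418), a C/EBP factor also known from myoblast differentiation and inflammation, was at 90.0, 99.9 and 87.8 FPKM in the siNC libraries and 85.7, 79.5 and 115.6 FPKM in siCNN3. It was the only one of the 10 whose groups overlapped. Its log2 fold change was -0.00, with a 95% confidence interval from -0.38 to 0.38 (adjusted p = 0.999, limma), and its sign turned when single libraries were left out. Tmem189 overlaps it on the opposite strand, with up to 10.8 FPKM.

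Nupr1 (chromosome 7, 126623249 to 126630861), a small chromatin-binding protein induced by many stresses, had one of the largest increases. It was at 59.9, 34.7 and 33.3 FPKM in the siNC libraries and 315, 208 and 373.6 FPKM in siCNN3. As for Ddit3 and Atf3, siNC replicate 1 and siCNN3 replicate 3 were the highest of their groups. The mean rose 7.01-fold, from 42.6 ± 15.0 to 298.9 ± 84.0 FPKM (SD, n = 3), and its log2 fold change came to 2.79 ± 0.292 (SE, adjusted p = 0.0099, limma). Of the 6 libraries, again only the removal of siNC replicate 3 ended the call (adjusted p = 0.0642, limma).

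Chac1 (chromosome 2, 119351229 to 119354381), whose enzyme breaks down glutathione, held its call best. It was at 4.37, 7.92 and 6.56 FPKM in the siNC libraries and 54.2, 52.2 and 40.03 FPKM in siCNN3. The lowest siCNN3 value was about 5 times the highest siNC value. Its mean rose 7.77-fold, from 6.29 ± 1.79 to 48.8 ± 7.68 FPKM (SD, n = 3), which is 2.79 ± 0.221 (SE) as a log2 fold change (adjusted p = 0.00473, limma). It was the only one of the 10 called with each of the 6 libraries left out in turn (adjusted p at most 0.0426, limma).

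The feedback genes were also higher. Trib3 (chromosome 2, 152337422 to 152344032), the pseudokinase that restrains ATF4, was the least abundant of the 10 in siNC, at 3.00, 4.42 and 4.68 FPKM, and was at 51.7, 45.1 and 20.4 FPKM in siCNN3. The groups did not overlap, though siCNN3 replicate 3 was under 50% of the other 2 siCNN3 libraries. The mean rose 9.69-fold, from 4.03 ± 0.903 to 39.05 ± 16.5 FPKM (SD, n = 3), which is 2.91 ± 0.350 (SE) as a log2 fold change (adjusted p = 0.0144, limma). This was the highest value among the 10 with all libraries, but Nupr1 was above Trib3 without siNC replicate 1 (3.06 and 2.75), without siCNN3 replicate 1 (2.73 and 2.66, with Chac1 at 2.71) and without siCNN3 replicate 2 (3.03 and 2.75). With a library left out it kept its call when siNC replicate 2 (adjusted p = 0.0352) or siCNN3 replicate 3 (0.00127) was the one removed, and the adjusted p was 0.0564 to 0.0734 without any of the others (limma). With the replicate block Trib3 was not called (adjusted p = 0.0533, limma). Ppp1r15a (chromosome 7, 45522916 to 45526268), the GADD34 gene, was at 12.1, 11.8 and 8.82 FPKM in the siNC libraries and 38.6, 37.4 and 22.5 FPKM in siCNN3. It too was lowest in siCNN3 replicate 3, but in siNC it was lowest in replicate 3 rather than replicate 1. Its mean rose from 10.9 ± 1.80 to 32.8 ± 8.95 FPKM (SD, n = 3), which is 1.48 ± 0.236 (SE) as a log2 fold change (adjusted p = 0.0332, limma), and with a library left out it was called only without siCNN3 replicate 3 (0.00573, and 0.0709 to 0.147 otherwise). With the most abundant transcript of each gene Ppp1r15a was not called either (adjusted p = 0.0616, limma).

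FPKM are per length of transcript, so levels can be set side by side between genes. In siNC the order of the means was Atf4, Cebpb, Ddit3, Nupr1, Atf5, Cebpg, Ppp1r15a, Atf3, Chac1 and Trib3. Of these neighbours, the ranges of Atf4 and Cebpb, of Ddit3 and Nupr1 and of Atf5 and Cebpg did not overlap, and all others did. In siCNN3 the order was Ddit3, Atf4, Nupr1, Atf5, Cebpb, Chac1, Trib3, Atf3, Ppp1r15a and Cebpg, and the ranges were apart only between Nupr1 and Atf5 and between Cebpb and Chac1. Among all genes ranked by mean FPKM, Ddit3 went from rank 609 to rank 97, Nupr1 from 1467 to 181, Trib3 from 8626 to 1735 and Atf4 from 270 to 145, while Cebpb was at 571 and 636.

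Within a group most of the 10 genes split by which library was high. Atf4, Atf5, Cebpg, Trib3 and Chac1 were lowest in siNC replicate 1 within siNC and lowest in siCNN3 replicate 3 within siCNN3. Atf3, Ddit3 and Nupr1 were highest in both of these libraries, while Cebpb and Ppp1r15a followed neither pattern. Over all genes tested 39.0% were lowest in both and 15.2% highest in both, so the first pattern was common in the whole table. Of the 48 ATF4 and CHOP target genes tested, 62.5% were lowest in both and 16.7% highest in both. The ratio of Ddit3 to Atf4 in FPKM was 0.895, 0.386 and 0.386 in siNC replicates 1 to 3 and 1.10, 1.06 and 1.98 in siCNN3 replicates 1 to 3. The ratio of Trib3 to Atf4 was between 0.0221 and 0.0253 in siNC and was 0.129, 0.127 and 0.0710 in siCNN3. siCNN3 replicate 3 thus had the highest level of Ddit3 with the lowest of Atf4 and Trib3 in its group. Of the interferon genes tested, 81.2% were lowest in both libraries as well. The part of library composition in this split was not tested.

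**Figure D3:**
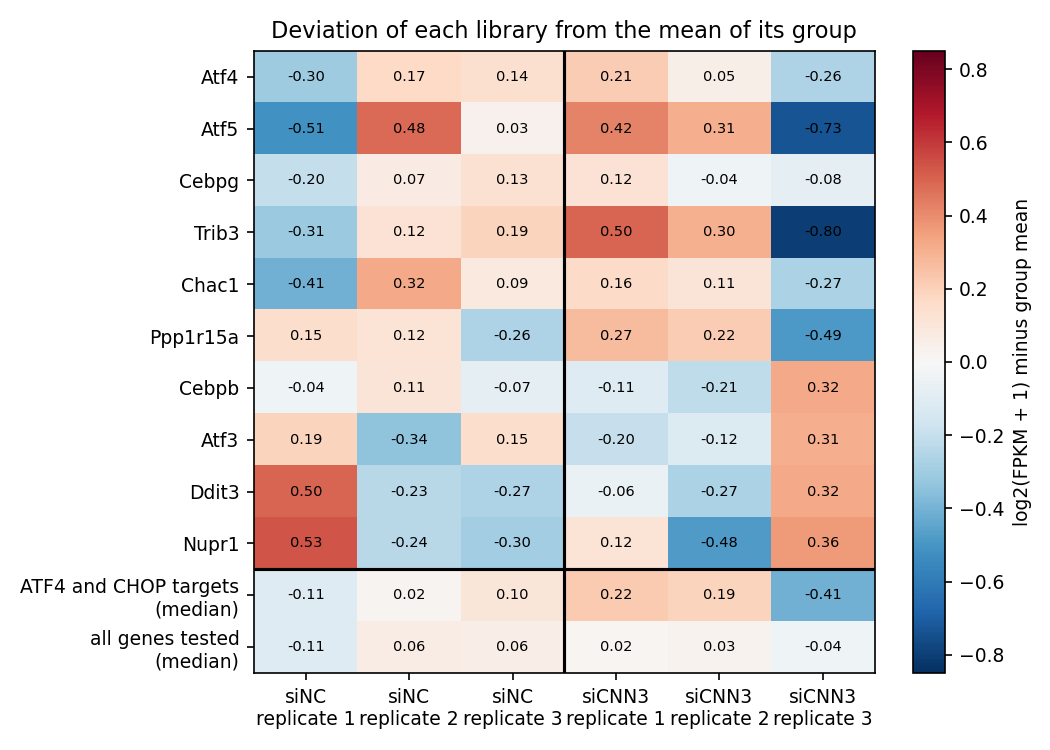
Deviation of each library from the mean of its own group on log2(FPKM + 1), for the 10 genes, for the median of the ATF4 and CHOP target genes and for the median of all genes tested, with red above and blue below the group mean. Trib3 is at -0.80 and Atf5 at -0.73 in siCNN3 replicate 3, where Nupr1 is at 0.36 and Ddit3 at 0.32.

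Of the genes that ATF4 or CHOP are known to activate, many were higher in siCNN3 though fewer passed the test. The list held 51 genes of amino acid synthesis and transport, tRNA charging and stress signaling, of which 48 were tested. Of these 14 were called higher, or 29.2%, and 0 lower, compared with 1.73% and 0.336% of all genes. A log2 fold change above 0 was found in 45 of the 48, and in 6258 of the 11593 genes tested. In 40 of the 48, or 83.3%, every siCNN3 library lay above every siNC library, compared with 13.8% of all genes. The median log2 fold change was 1.09, against 0.03 over all genes. The count changed with the libraries fitted and was 36 without siCNN3 replicate 3, 7 without siNC replicate 2, 4 without siNC replicate 1, 2 without siCNN3 replicate 1, 1 without siCNN3 replicate 2 and 0 without siNC replicate 3. It was 3 with the replicate block, 3 with the most abundant transcript, 8 without limma's trend and 0 on each gene's own spread. The remaining alternatives called 10 to 16. Among the 12 cytosolic tRNA synthetase genes of the list, 6 were called higher and all 12 had every siCNN3 library above every siNC library, with a median of 1.11, where the shares over all genes were the same 1.73% and 13.8%. The element of Atf3, Chac1 and Nupr1 shown above was in 11 of the 38 list genes with a promoter window, or 28.9%. Since the list was named from known targets, this share is a description.

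Asns, asparagine synthetase, was at 14.6, 13.9 and 14.5 FPKM in the siNC libraries and 95.9, 80.7 and 53.2 FPKM in siCNN3. The siNC values were nearly equal and all siCNN3 values lay far above them. Its log2 fold change came to 2.30 ± 0.214 (SE, adjusted p = 0.00972, limma). Of the 6 libraries only the removal of siNC replicate 3 ended the call of Asns (adjusted p = 0.0584, limma). With the most abundant transcript in place of the gene its log2 fold change was 1.59 and was not called (adjusted p = 0.389, limma). Gdf15, a secreted stress cytokine, was at 19.8, 11.3 and 9.76 FPKM in the siNC libraries and 58.5, 55.5 and 65.4 FPKM in siCNN3. Like Ddit3, it was highest in siNC replicate 1 and siCNN3 replicate 3. Its log2 fold change was 2.11 (limma, adjusted p = 0.0144), a call lost when siNC replicate 3 or either of siCNN3 replicates 1 and 2 was left out (adjusted p up to 0.0655) and also with the most abundant transcript (0.0566). Aldh1l2, a mitochondrial folate enzyme, was higher by 2.09 on the log2 scale (limma, adjusted p = 0.0499), at the edge of the threshold. Of its 16 alternatives, 3 called it, those without siNC replicate 2, without siCNN3 replicate 3 and with the filter at 5 FPKM, and the adjusted p of the others was 0.0519 to 0.199 (limma). Fgf21, a hormone released by stressed muscle, was near 0 in siNC (0.129, 0.0889 and 0.245 FPKM) and at 3.71, 3.90 and 1.34 FPKM in siCNN3, and its log2 fold change of 1.71 (limma, adjusted p = 0.0442) passed the test. With a library left out Fgf21 was called only without siCNN3 replicate 3 (adjusted p = 0.00277, and 0.114 to 0.169 otherwise, limma), and it was not called with the most abundant transcript (0.0782) or with the replicate block (0.105). At such levels the added 1 FPKM makes the log2 fold change smaller than the ratio of the values.

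Upstream of ATF4, 1 gene passed the test. In the list of eIF2 kinases, eIF2 and eIF2B subunits and phosphatase genes, 1 of 19 was called higher, where 1.73% of all genes were, and 0 lower, and the median log2 fold change was 0.09, so that this single call says little about the list. The called gene was Eif2s2, the beta subunit of eIF2, at 91.04, 86.6 and 102.1 FPKM under siNC and 194.2, 183.9 and 164.4 FPKM in siCNN3 (log2 fold change 0.95, adjusted p = 0.0144, limma), and of the 6 fits that each left out a library it was called in those without siNC replicate 2 and without siCNN3 replicate 3, while the other 4 gave an adjusted p up to 0.0849 (limma). With the replicate block Eif2s2 was not called either (adjusted p = 0.0736, limma). Of the 4 kinases, Eif2ak2 (PKR), which senses double-stranded RNA and is itself induced by interferon, was at 18.1, 50.6 and 34.1 FPKM in the siNC libraries and 111.3, 116.4 and 76.5 FPKM in siCNN3. Its groups did not overlap, and its log2 fold change of 1.63 was not called (adjusted p = 0.0818, limma), except without siNC replicate 2 (0.0470). Eif2ak3 (PERK), the kinase of the endoplasmic reticulum (ER), and Eif2ak4 (GCN2), the sensor of uncharged tRNA, had log2 fold changes of -0.46 each (adjusted p = 0.207 and 0.266, limma), with all siCNN3 values below the siNC values. Eif2ak1 (HRI), which responds to heme and mitochondrial stress, was at -0.08 (adjusted p = 0.886, limma), and its groups overlapped.

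**Figure D4:**
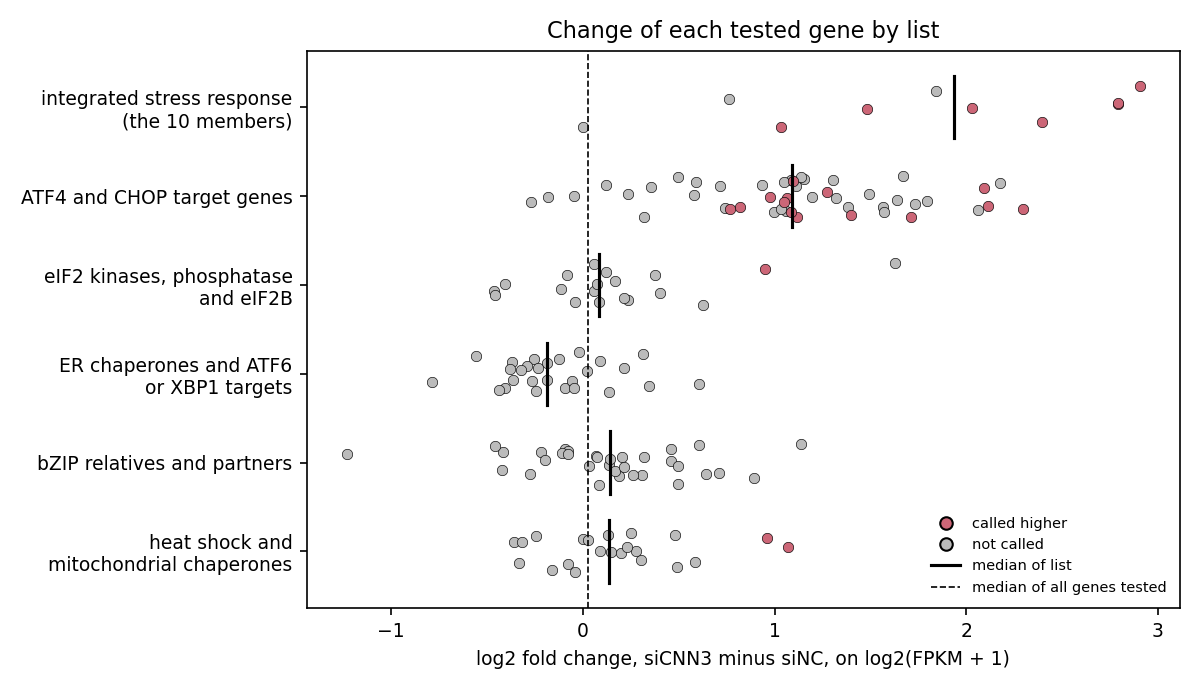
Log2 fold change, siCNN3 minus siNC, on log2(FPKM + 1) for each tested gene of 6 lists, with called genes in red, a bar at the median of each list and a dashed line at the median of all genes tested. The bars stand at 1.94 for the 10 integrated stress response genes and 1.09 for the ATF4 and CHOP targets, and between -0.19 and 0.14 for the other 4 lists.

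The neighbouring stress pathways were measured for contrast. Of 27 tested ER chaperones and other targets of ATF6 or XBP1, the factors of the unfolded protein response, 0 were called in either direction by limma, and no alternative called any. At an unadjusted p below 0.05, 2 of them were higher and 5 lower, where 9.94% of all genes tested were higher and 6.14% lower. The median log2 fold change was -0.19, and the lowest adjusted p of the list was 0.205 for Derl1 (log2 fold change 0.34), an ER membrane protein of protein disposal, followed by 0.226 for Sec24d (-0.36), a vesicle coat subunit. The ER stress element, made of CCAAT and CCACG with 9 bases between them, was in 9 of the 24 list genes with a promoter window, in 0 of the 10 integrated stress response genes, in 0.137% of all genes and in 0.141% of the tested ones. This list too was named from known targets, so its share is a description. Among 22 heat shock and mitochondrial chaperone genes 2 were called higher, or 9.09% against 1.73% of all genes, both mitochondrial, and the median was 0.14. The other mitochondrial genes of the list, Hspd1, Hspe1, Clpp, Yme1l1 and Trap1, were not called (adjusted p = 0.346 to 0.935, limma). Hspa9, the mitochondrial HSP70, was higher by 1.07 on the log2 scale (limma, adjusted p = 0.0099), a call lost when siNC replicate 3 or either of siCNN3 replicates 1 and 2 was left out (adjusted p up to 0.0667) and also with the replicate block (0.0556). Lonp1, a mitochondrial protease known as an ATF4 target, was at 0.96 (adjusted p = 0.0301, limma) and with a library left out was called only without siCNN3 replicate 3 (adjusted p up to 0.140 otherwise), and it was not called with the replicate block (0.101).

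Other bZIP genes did not pass the test. Of 33 tested relatives and partners 0 were called by limma, with 7 higher and 1 lower at an unadjusted p below 0.05, against the 9.94% and 6.14% of all genes given above, and a median log2 fold change of 0.14. The lowest p-values were those of Nfil3, a circadian and immune repressor (0.64, adjusted p = 0.105, limma), and Batf2, an interferon-inducible factor at 0 to 0.0558 FPKM under siNC and 0.661 to 2.48 FPKM in siCNN3 (1.14, adjusted p = 0.109, limma). A list of 3 relatives of Trib3 and Chac1 and 3 phosphatase subunits that the product of Ppp1r15a recruits held 0 called genes by limma, with 0 higher and 1 lower at an unadjusted p below 0.05. Trib1 had a log2 fold change of -0.03 (adjusted p = 0.940), Trib2 of -0.33 (0.562) and Chac2 of 0.20 (0.817), where the signs of Trib1 and Chac2 turned under some alternatives. Ppp1r15b, the relative of Ppp1r15a that was counted in the eIF2 list above, was at 16.7, 23.5 and 22.3 FPKM in the siNC libraries and 30.6, 28.6 and 23.9 FPKM in siCNN3. Its groups did not overlap, and its log2 fold change of 0.40 was not called (adjusted p = 0.311, limma). Of the phosphatase subunits, Ppp1ca was at -0.13 (adjusted p = 0.691), Ppp1cb at -0.13 (0.745) and Ppp1cc at -0.38 (0.187, limma), the last with all siCNN3 values below the siNC values.

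Several markers of other processes also differed between the groups. Of 32 interferon response genes 20 were called higher, or 62.5% against 1.73% of all genes, and 0 lower (median log2 fold change 3.57), and their summed level was 139.7 to 853 FPKM under siNC and 3448 to 6081 FPKM in siCNN3. The called genes with the largest changes were Cxcl10, Ifit3, Oas1a and Rsad2, with log2 fold changes of 6.30, 5.88, 5.02 and 4.80 (adjusted p = 0.0152, 0.0491, 0.0144 and 0.0253, limma). Of 12 tested skeletal muscle markers 5 were called lower, or 41.7% against 0.336% of all genes, with a summed level of 195.8 to 241.4 FPKM under siNC and 132.9 to 141.1 FPKM in siCNN3. Acta1, Mylpf, Tnnt1 and Tnnt3 had log2 fold changes of -2.12, -1.88, -1.71 and -1.50 (adjusted p = 0.00473, 0.0099, 0.0332 and 0.0144, limma). Myf5, a factor of myoblast identity, was the 1 tested marker of the list with a log2 fold change above 0 (0.88, adjusted p = 0.238, limma), from 3.55 to 5.64 FPKM under siNC and 5.40 to 12.9 FPKM in siCNN3, and it was called higher without siCNN3 replicate 3 (adjusted p = 0.0297, limma). Among 16 blood and immune markers 6 were tested and 2 called lower, the globin genes Hbb-bs and Hbb-bt at -3.27 and -2.56 (adjusted p = 0.0264 and 0.0495, limma), whose reads can be shared between near-identical copies. The summed level of this list was 234.7 to 658.5 FPKM under siNC and 54.0 to 76.2 FPKM in siCNN3, most of it from globin genes. Of the white blood cell markers, Cd68 was at 3.60 to 5.39 FPKM under siNC and 1.96 to 3.56 FPKM in siCNN3 (log2 fold change -0.54, adjusted p = 0.312, limma), and Lyz2 at 1.13 to 4.80 and 0.481 to 1.12 FPKM (-0.83, adjusted p = 0.342, limma). Neither was called, and both had all siCNN3 values below the siNC values. Ptprc, Itgam and Csf1r were not among the 11835 genes analysed. Of 13 markers of endothelial, fat, epithelial and nerve cells 3 were tested and 0 called by limma, also at an unadjusted p below 0.05, with log2 fold changes of 0.33 for Tubb3 and -0.75 for Krt8 (adjusted p = 0.329 and 0.342) and a summed level of 4.48 to 7.33 FPKM in all libraries. With a library left out, 1 (without siNC replicate 3) to 25 (without siNC replicate 2) interferon genes were called higher, and 1 to 5 muscle and 0 to 4 blood markers lower. The part of these changes in the levels of the integrated stress response genes was not tested.

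Over the 6 libraries the genes most like Atf4 were Zup1, Cavin4, Neil3, Slc25a33 and Tent2, with Pearson correlations of log2(FPKM + 1) from 0.997 to 0.998 among 8171 genes that averaged 5 FPKM or more. For Chac1, the gene with the lowest p of the 10, they were the class I histocompatibility genes H2-K1, H2-Q4 and H2-D1, the nucleic acid sensor Zbp1 and the surface antigen gene Ly6c2, with correlations from 0.998 to 1.000. These points share their libraries and the difference between the groups, and with 6 of them many genes correlate closely. The correlations are given as a description.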

How the data were processed

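RNA of 6 C2C12 libraries, 3 siNC and 3 siCNN3, was sequenced. The authors deposited FPKM for 24023 Ensembl transcripts. The processing notes name Bowtie 0.12.2 and the builds mm8 and mm10 without their roles, and the program behind the FPKM, its annotation and its use of strand are not given in the sources used here. Identifiers were matched to GENCODE M21 (GRCm38) without their version (23949 matched, 74 with at most 0.220% of a library's FPKM left out), and FPKM were summed for 11835 genes.

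Genes averaging 0.5 FPKM or more (11593) were fitted on log2(FPKM + 1) with limma 3.58.1 in R 4.3.3 (mean-variance trend, all 6 libraries, no covariate). Fold changes on this scale understate those of low genes. The fit was tested on simulated data of 11593 genes: with 200 of them shifted by a log2 change of 1 it called 99, 95 of them shifted ones, with a change of 2 it called 191, 181 of them shifted ones, and with no shift it called 0. How often the fit makes false calls when libraries share deviations over many genes was not tested. Such sharing was seen here, with siCNN3 replicates 1 and 2 the closest pair. Depth is unknown, so no counting error is given.

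Members, lists and tests were chosen with earlier results of these data known. Named are all 10 members, Cnn3, up to 4 called genes with the largest change in each list (eIF2 and target genes, ER and other chaperones, bZIP and other relatives, interferon genes, cell markers) or the 2 with the lowest p if none was called, the 4 kinases, all close relatives and the 5 genes most like Atf4 and like the member with the lowest p. Genes named for checking the labels or for overlap, and Ppp1r15b, Myf5, Cd68 and Lyz2, were added after their values were seen. Promoters of RefSeq (GRCm38.p6) were matched by Entrez identifier or symbol, and 32851 windows covered 27025 genes. The 16 alternatives changed the pseudocount, filter, scaling, block, spread estimate, transcript choice or libraries, and a spline correction for GC content and length was added after seeing the data. Python 3.11.15 (matplotlib 3.10.9, numpy 2.4.6, pandas 2.3.3) was used for tables and plots.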

Additional observations from a re-analysis of the deposited data

How the results depend on the processing

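Without counts the depth behind each value is unknown, and leaving out a library also leaves fewer to the fit, so a call lost that way does not show that it rests on that library. Of the 10 integrated stress response genes 1 to 9 were called higher with a library left out, against 7 with all, the lowest without siNC replicate 3 and the highest without siCNN3 replicate 3, and 0 with each gene on its own spread (9 at an unadjusted p below 0.05). The other alternatives called 5 to 8 and none called any lower. The log2 fold changes of the 9 genes other than Cebpb were above 0 throughout.

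Of all genes, 16 to 444 were called higher and 4 to 161 lower with a library left out, 62 and 6 with the replicate block, 0 and 0 on each gene's own spread (1084 and 716 at an unadjusted p below 0.05), and 100 and 22 with the most abundant transcript, against 200 and 39. More were lower with median-of-ratios scaling (63), quantile normalization (93) and the GC and length trend removed (93), so that higher genes were 68.2% and 68.7% of the calls in the last 2, against 83.7%. Scaling moved the median of all genes by at most 0.073. Of the 151 tested genes in the pathway lists 17 were called higher, and 3 with the replicate block, 11 without a trend, 0 on their own spread, 6 with the most abundant transcript and 0 to 39 with a library left out. With the GC and length trend removed 1 was lower, against 0. Same-numbered libraries deviated from their group means with correlations of -0.278, 0.314 and -0.025. With siCNN3 replicate 3, siNC replicate 1 was at 0.442 and siNC replicate 2 at -0.445. With 3 libraries in a group such correlations cannot show whether the numbers mark a pairing. The replicate block left 5 of the 10 genes called. The change of Cnn3 was -1.46 to -0.95 with a library left out.

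Signs near 0 turned. Cebpb was at 0.005 with the GC and length trend removed and -0.16 to 0.11 with a library left out, where it was 0.055 without siNC replicate 2 and 0.053 and 0.106 without siCNN3 replicates 1 and 2. With a library left out, Eif2ak1 was at -0.225 to 0.09 (0.09 without siNC replicate 2, 0.064 without siCNN3 replicate 3), Trib1 at -0.144 to 0.076 (the latter without siCNN3 replicate 2) and Chac2 at -0.069 to 0.517 (the former without siNC replicate 1). With the GC and length trend removed Trib1 was at 0.006 and Chac2 at -0.132. The cause was not tested.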
